A study of Homo sapiens with 32 samples.

Results

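The 10 genes described here are SPRY1, SPRY2, SPRY4, SPRED1 and SPRED2 (Sprouty and SPRED proteins), DUSP4, DUSP5 and DUSP6 (dual-specificity phosphatases), and ETV4 and ETV5 (ETS transcription factors). They were selected by symbol from the 18980 coding genes of each RNA-seq file, as known targets and feedback inhibitors of ERK signalling. Falls of some of them were already known from these libraries, so the values below describe the genes, and no test over the 10 is given. RNA-seq of total RNA came from RH4, an established human alveolar rhabdomyosarcoma line (a tumour of skeletal muscle type), exposed to compounds aimed at the acetyltransferases CBP and p300. A485 is known as an inhibitor of their catalytic site, and the labels do not say how dCBP, IHK-44 and JQAD act. Each compound was given at 100 nM and 1 uM for 2 h and 6 h, which makes 16 treated libraries, beside 2 libraries of DMSO (the solvent) and 2 of NT (not spelled out in the labels), sampled at the same times. All cells were the same line, plated the day before treatment, so the values describe 1 tumour line. Each condition had 1 library, and in the tests the 4 libraries of a compound stood in for replicates, with a common term for time, so the spread between them contains the dose and any change with time particular to a compound. Intervals given for single values cover counting error only, and the spread between cultures of 1 condition was not measured. In bulk RNA fewer cells and less RNA per cell cannot be told apart.

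The RAS-ERK pathway carries signals from receptor tyrosine kinases through RAF and MEK to ERK, and it restrains itself through genes that active ERK switches on. Sprouty and SPRED proteins act upstream, between the receptor and RAF, and SPRED proteins do so with neurofibromin. DUSP6 and DUSP4 dephosphorylate ERK in the cytoplasm and the nucleus, respectively, and ETV4 and ETV5 are transcription factors that follow FGF receptor and ERK signalling in many tissues.

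The libraries held between 13466631 and 16799327 counts over the coding genes, so 1 CPM (the read count scaled to a common library total) corresponds to 13.5 to 16.8 reads. On average all 10 genes exceeded 1 CPM, and the lowest single value rests on 24 reads. The median log2 ratio of all genes to DMSO lay within 0.217 of 0, with the largest value for 1 uM IHK-44 at 6 h. Markers of the line were present: MYOD1, the myogenic regulator, ran from 508 to 677 CPM in the DMSO and NT libraries. With 1 uM IHK-44 at 6 h MYOD1 was 27.2 CPM, MYOG 29.8 CPM (264 to 300 in the controls) and TFAP2B 2.77 CPM (64.2 to 81.1). DES, at 282 CPM (392 to 439), and the remaining markers fell less in that library. The summed level of 8 rhabdomyosarcoma markers was 3250 to 3458 CPM with DMSO, 1267 to 2762 with dCBP, 1270 to 2784 with IHK-44, 1752 to 3050 with A485 and 3191 to 3589 with JQAD, and the part of this shift in the results below was not tested. The 8 markers of other cells summed to between 2.40 and 6.26 CPM in every library, with EPCAM and KRT5 at 0 throughout.

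The promoters of 6 of the 10 genes matched a RefSeq entry (GRCh38.p14). The 250 bases before the annotated start are shown for the 3 genes whose levels varied most over the libraries, and for SPRED1, whose level varied little, since members of related function can then be compared letter by letter. Capitals mark GGGCGG or its reverse complement, the box bound by SP factors, and TGACG, the core of the cyclic AMP response element. SPRY1 lies on chromosome 4 (chr4:123396545-123396794, plus strand), SPRY2 on chromosome 13 (chr13:80341127-80341376, minus strand), DUSP6 on chromosome 12 (chr12:89352502-89352751, minus strand) and SPRED1 on chromosome 15 (chr15:38252586-38252835, plus strand).
SPRY1: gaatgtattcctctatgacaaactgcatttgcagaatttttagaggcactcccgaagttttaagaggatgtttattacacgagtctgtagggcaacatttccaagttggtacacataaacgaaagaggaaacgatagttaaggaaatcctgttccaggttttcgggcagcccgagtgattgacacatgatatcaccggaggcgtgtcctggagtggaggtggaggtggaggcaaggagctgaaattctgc
SPRY2: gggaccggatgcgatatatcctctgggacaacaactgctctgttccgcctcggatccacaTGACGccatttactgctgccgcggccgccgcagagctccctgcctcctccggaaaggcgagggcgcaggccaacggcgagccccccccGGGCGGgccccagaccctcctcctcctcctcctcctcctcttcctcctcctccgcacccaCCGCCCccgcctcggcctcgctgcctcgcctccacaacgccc
DUSP6: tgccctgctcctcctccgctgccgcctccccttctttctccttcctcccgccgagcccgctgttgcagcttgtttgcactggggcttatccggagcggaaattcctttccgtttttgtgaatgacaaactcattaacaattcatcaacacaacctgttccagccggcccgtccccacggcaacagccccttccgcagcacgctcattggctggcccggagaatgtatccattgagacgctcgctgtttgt
SPRED1: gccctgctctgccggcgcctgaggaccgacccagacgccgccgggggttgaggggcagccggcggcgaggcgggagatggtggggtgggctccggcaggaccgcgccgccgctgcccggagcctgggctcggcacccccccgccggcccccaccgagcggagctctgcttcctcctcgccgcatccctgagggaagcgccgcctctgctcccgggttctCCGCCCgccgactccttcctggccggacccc

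Of these windows, those of SPRY1 and DUSP6 hold neither motif, while the SPRY2 window holds TGACG and 2 GGGCGG boxes and the SPRED1 window holds 1 GGGCGG box. Over the windows of 250 bases before to 50 bases after the start, the share of G and C was 47.7% for SPRY1, 58.3% for DUSP6, 60.0% for SPRED2, 65.0% for SPRY4, 71.0% for SPRY2 and 76.3% for SPRED1, beside a median of 63.0% over 14997 coding-gene promoters. The ratio of observed to expected CpG dinucleotides was 0.734 for SPRY1, 0.737 for SPRED1, 0.769 for DUSP6, 0.827 for SPRY4, 0.846 for SPRY2 and 0.853 for SPRED2, where the median of all promoters was 0.769. SPRY1 and SPRED1, the ends of the range in G and C, were close to each other in this ratio. Motifs were searched on both strands of the windows of 300 bases. GGGCGG occurred in 4 of the 6 genes and in 59.3% of all promoters, and TGACG in 3 of the 6 and in 29.6%. The full element TGACGTCA (2.62% of all promoters, overlapping TGACG) was in none of the 6 windows. The longer ETS motifs CCGGAAGT (6.32%) and ACCGGAAG (3.19%), which overlap each other, were absent from them too. Shorter ETS sites, such as the core GGAA, were not searched.

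dCBP and IHK-44 lowered the Sprouty genes and the ERK phosphatases DUSP4 and DUSP6 most, with A485 the same genes lay below DMSO at both doses but by 2-fold only at 1 uM, and with JQAD the 10 genes stayed near DMSO. Counting each gene in each library, 20 of 40 values with IHK-44 were at least 2-fold lower than DMSO of the same time on the log2(CPM + 1) scale, against 3.96% of all gene and library values. With dCBP the count was 19 of 40 (4.01% of all), with A485 9 of 40 (1.43% of all), with JQAD 0 of 40 (0.039% of all) and with NT 0 of 20 (0.0287% of all). With JQAD the Sprouty genes ran from 83.2% (SPRY2, 100 nM, 6 h) to 124% (SPRY4, 1 uM, 2 h) of DMSO. No value of the 10 genes was 2-fold or more higher. The values at least 2-fold lower all belonged to SPRY1, SPRY2, SPRY4, DUSP4 and DUSP6, and the 9 values with A485 were all at 1 uM. On the deposited TPM scale the count for A485 was 4. The 4 libraries lay below all 4 DMSO and NT libraries for 8 of the 10 genes with dCBP (11.1% of all genes), for 8 with IHK-44 (11.5%), for 4 with A485 (7.45%) and for 0 with JQAD (1.47%). The members were chosen with this contrast known, so the shares are given for scale alone.

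**Figure D1:**
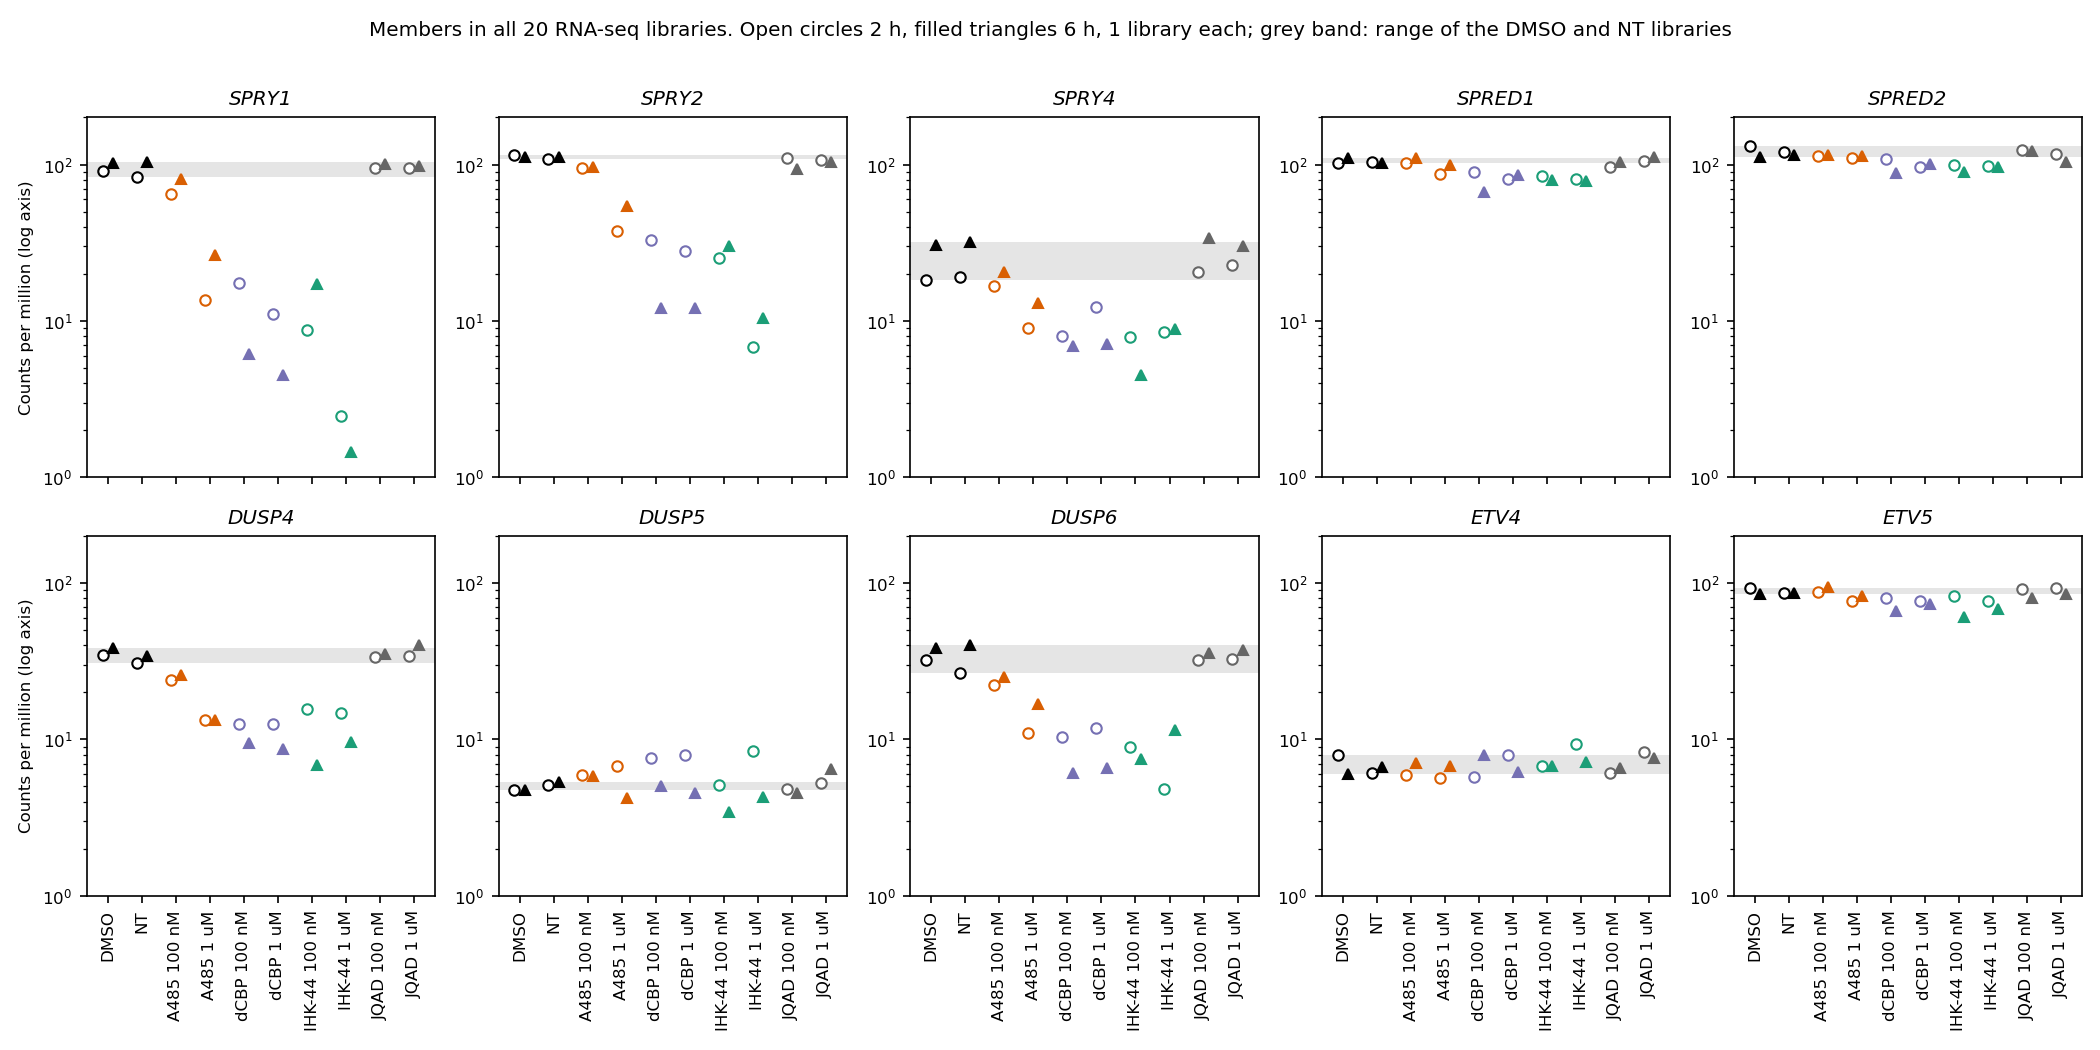
CPM (log axis) of the 10 genes in all 20 libraries, 1 point a library, by treatment, with open circles at 2 h, filled triangles at 6 h and a grey band for the range of the DMSO and NT libraries. SPRY1, SPRY2, DUSP4 and DUSP6 lie below the band in all libraries of A485, dCBP and IHK-44, and JQAD stays close to it, while DUSP5 and ETV4 lie close to the band with every compound.

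SPRY1, an inhibitor of receptor tyrosine kinase signalling upstream of RAF, stood at 90.9 CPM (2 h) and 102 CPM (6 h) with DMSO and at 83.3 and 104 CPM with NT. With 1 uM IHK-44 it was 2.45 CPM at 2 h and 1.44 CPM at 6 h, and with 100 nM 8.70 and 17.3 CPM. With dCBP it was 11.1 and 4.50 CPM at 1 uM and 17.6 and 6.16 CPM at 100 nM. Every library of these compounds was thus below all DMSO and NT libraries, and the lowest, 1 uM IHK-44 at 6 h, held 1.41% of the DMSO level (24 reads, exact 95% Poisson interval 0.925 to 2.15 CPM). With A485 SPRY1 was 13.6 and 26.5 CPM at 1 uM and 64.5 and 81.1 CPM at 100 nM, also below every control but far apart between doses. With JQAD it ran from 94.4 to 100.2 CPM, inside the range of the controls. The fitted log2 change against DMSO was -3.38 (SE 0.68) for dCBP and -3.79 (SE 0.69) for IHK-44, with adjusted p = 0.00502 and 0.0028 (edgeR, quasi-likelihood test, adjusted over all genes by the Benjamini-Hochberg method).

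SPRY2, the paralog at the highest level per length in the controls, followed the same order of compounds. It was 116 and 112 CPM with DMSO and 108 and 112 CPM with NT. With IHK-44 it fell to 6.76 and 10.5 CPM at 1 uM and to 25.4 and 30.2 CPM at 100 nM. With dCBP it was 27.8 and 12.2 CPM at 1 uM and 32.9 and 12.0 CPM at 100 nM, so that here the times and not the doses lay apart. A485 left 37.5 and 54.0 CPM at 1 uM, and 95.1 and 95.8 CPM at 100 nM. The log2 change was -2.55 (SE 0.48, adjusted p = 0.00341) for dCBP and -2.74 (SE 0.48, adjusted p = 0.00208) for IHK-44 in the same edgeR fit. With JQAD the 4 values ran from 93.0 to 111 CPM, of which 3 lay under the narrow range of the controls (108 to 116 CPM).

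SPRY4, the third Sprouty gene, had its higher control values at 6 h: 18.3 and 30.5 CPM with DMSO and 19.1 and 32.1 CPM with NT. With dCBP it was 12.4 and 7.15 CPM at 1 uM and 7.99 and 6.94 CPM at 100 nM, and with IHK-44 8.54 and 8.90 CPM at 1 uM and 7.88 and 4.52 CPM at 100 nM. In 3 of these 4 pairs the 6 h value was the lower, and in the other, 1 uM IHK-44, it was 1.04 times the 2 h value. A485 gave 8.99 and 13.0 CPM at 1 uM and 16.7 and 20.5 CPM at 100 nM, so each value was below the controls of its own time. The log2 change was -1.57 (SE 0.34, adjusted p = 0.00666) for dCBP and -1.80 (SE 0.34, adjusted p = 0.00339) for IHK-44 by edgeR.

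SPRED1 and SPRED2, which hold neurofibromin at the membrane, were among the most even of the 10 genes and fell by far less. SPRED1 ran from 102 to 109.9 CPM in the DMSO and NT libraries, from 67.1 to 90.2 CPM with dCBP and from 78.1 to 84.5 CPM with IHK-44. SPRED2 ran from 112 to 131 CPM in the controls, from 88.8 to 109.3 CPM with dCBP and from 89.5 to 99.9 CPM with IHK-44. For both genes these ranges do not overlap with the controls, and the log2 changes of SPRED1 were -0.50 (SE 0.12, adjusted p = 0.00974) for dCBP and -0.51 (SE 0.12, adjusted p = 0.0111) for IHK-44 in the edgeR fit. Those of SPRED2 were -0.40 (SE 0.08, adjusted p = 0.00579) and -0.45 (SE 0.08, adjusted p = 0.00285) by edgeR. With 100 nM A485 SPRED1 was 103 and 109.7 CPM, inside the controls, and with 1 uM 87.1 and 99.4 CPM, under them.

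**Figure D2:**
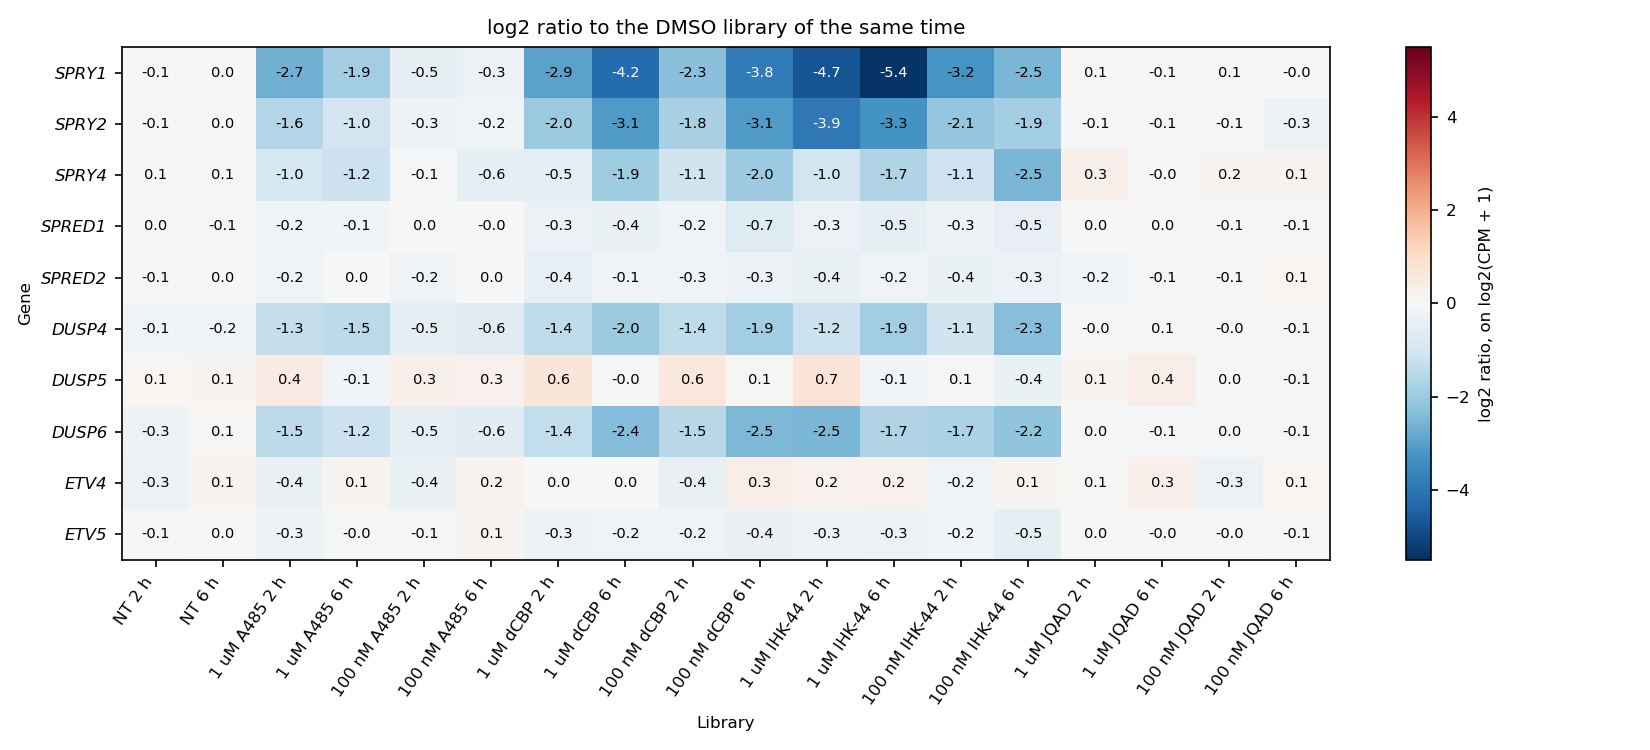
log2 ratio to the time-matched DMSO library, on log2(CPM + 1), for the 10 genes (rows) in the 18 NT and treated libraries (columns), with the value printed in each cell and blue for lower. SPRY1 reaches -5.40 with 1 uM IHK-44 at 6 h, the lowest value of the 10 genes, and the rows of SPRED1, SPRED2, DUSP5, ETV4 and ETV5 hold no value of -1 or lower.

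Of the phosphatases, DUSP6, specific for ERK in the cytoplasm, was 32.0 and 38.7 CPM with DMSO and 26.5 and 40.2 CPM with NT. With dCBP it was 11.9 and 6.56 CPM at 1 uM and 10.3 and 6.09 CPM at 100 nM. With IHK-44 it was 4.83 and 11.5 CPM at 1 uM and 8.96 and 7.44 CPM at 100 nM. All 8 values are below every control, and with 1 uM IHK-44 the 6 h value was 2.38 times the 2 h value, whereas the 3 other pairs were lower at 6 h. A485 gave 11.1 and 16.7 CPM at 1 uM and 22.3 and 24.9 CPM at 100 nM, again below all controls. The log2 change was -2.11 (SE 0.32, adjusted p = 0.00114) for dCBP and -2.22 (SE 0.31, adjusted p = 0.000551) for IHK-44 by edgeR.

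DUSP4, a nuclear phosphatase of ERK and related kinases, was 34.5 and 38.6 CPM with DMSO and 31.0 and 34.1 CPM with NT. It was 12.6 and 8.63 CPM with 1 uM dCBP, 12.5 and 9.42 CPM with 100 nM dCBP, 14.8 and 9.56 CPM with 1 uM IHK-44 and 15.6 and 6.85 CPM with 100 nM IHK-44. The 6 h value was the lower in each of these pairs, while in the controls it was the higher. A485 gave 13.3 CPM at 2 h and 13.3 CPM at 6 h with 1 uM, and 23.8 and 25.7 CPM with 100 nM. The log2 change was -1.88 (SE 0.30, adjusted p = 0.00146) for dCBP and -1.78 (SE 0.29, adjusted p = 0.0016) for IHK-44 by edgeR.

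DUSP5, a nuclear phosphatase specific for ERK, stood at a low level, between 4.74 and 5.34 CPM in the DMSO and NT libraries. At 2 h it was 7.98 CPM with 1 uM dCBP, 7.66 CPM with 100 nM dCBP and 8.47 CPM with 1 uM IHK-44, all above the 4 controls. With A485 it was above them too at 2 h, at 6.79 CPM (1 uM) and 5.88 CPM (100 nM). With 100 nM IHK-44 it was 5.07 CPM, inside their range. At 6 h 1 uM dCBP, 100 nM dCBP and 1 uM IHK-44 gave 4.57, 5.03 and 4.27 CPM, within or under the range of the controls. The 6 h values were 3.45 CPM with 100 nM IHK-44, and 4.23 CPM (1 uM) and 5.87 CPM (100 nM) with A485. Of the 3 phosphatases DUSP5 was the one with no value below DMSO at 2 h. Its log2 change was 0.27 (SE 0.28, adjusted p = 0.48) for dCBP and 0.01 (SE 0.28, adjusted p = 0.988) for IHK-44 by edgeR.

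Of the ETS factors, ETV5 was called lower with dCBP and IHK-44 and ETV4 was not. ETV5 ran from 85.6 to 92.6 CPM in the DMSO and NT libraries, from 66.8 to 80.8 CPM with dCBP, from 61.0 to 83.1 CPM with IHK-44 and from 76.6 to 94.4 CPM with A485. Its log2 change was -0.37 (SE 0.12, adjusted p = 0.0321) for dCBP and -0.42 (SE 0.12, adjusted p = 0.0242) for IHK-44 by edgeR, the smallest among the falls that passed for IHK-44 and dCBP alike. The call for ETV5 with dCBP was lost in 8 of 27 alternative settings, with adjusted p up to 0.264, and with IHK-44 in 4 of 27, up to 0.261. ETV4 ran from 6.02 to 7.92 CPM in the controls, from 5.74 to 7.98 CPM with dCBP and from 6.72 to 9.36 CPM with IHK-44, so these groups overlap. Its log2 change was -0.11 (SE 0.20, adjusted p = 0.705) for dCBP and -0.01 (SE 0.20, adjusted p = 0.984) for IHK-44 by edgeR.

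Over the 10 genes, edgeR's quasi-likelihood test called 8 lower with dCBP (11.8% of all genes tested were called lower) and 8 lower with IHK-44 (9.21% of all), in both cases all but DUSP5 and ETV4. The median fitted log2 change of the 10 was -1.04 for dCBP and -1.14 for IHK-44, beside 0.05 and 0.04 over all genes tested. With A485 the test called 0 of the 10 (0.158% of all lower), with 1 called by DESeq2 (385 of all genes) and 0 by limma. At an unadjusted p under 0.05 in edgeR were 3 of the 10, beside 2534 of all 13260 genes tested. DUSP4 came closest with a log2 change of -1.01 (SE 0.29, adjusted p = 0.103), and SPRY1, at -1.11, had an SE of 0.65, over libraries that span both doses. With JQAD 0 were called by edgeR (0.0% of all lower), DESeq2 and limma alike, with 0 at an unadjusted p under 0.05, and the log2 changes lay between -0.14 and 0.16. NT against DMSO likewise gave 0 (0.0% of all lower), with 0 unadjusted. The 95% interval of SPRY1 with JQAD, -1.38 to 1.41, rests on 1 estimate of spread shared by all compounds. Leaving out the DMSO library of 6 h leaves 1 DMSO library in the fit. Only some of the 8 genes then passed for dCBP and IHK-44, and far fewer of all genes passed too. Every log2 change of the 8 genes stayed negative. With NT in place of DMSO the counts were 7 for dCBP and 8 for IHK-44.

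**Figure D3:**
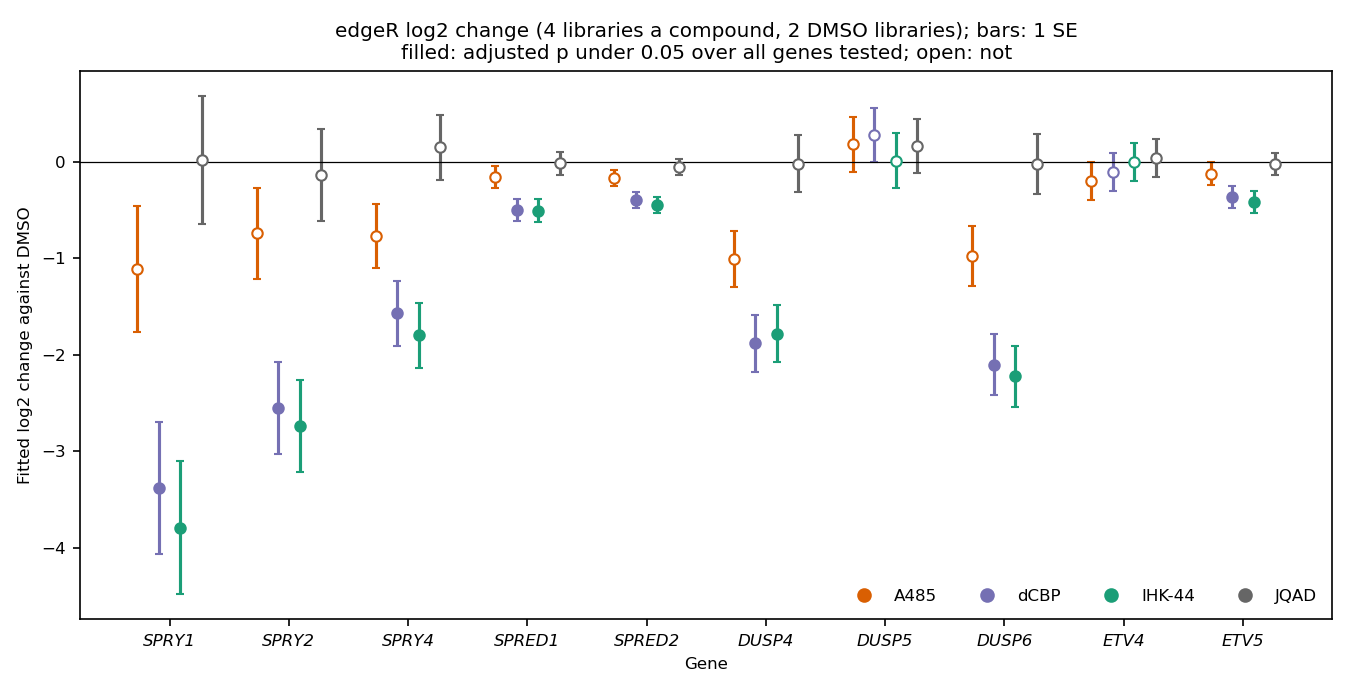
Fitted log2 change against DMSO (edgeR, 4 libraries a compound and 2 DMSO libraries, bars of 1 SE) for the 10 genes and the 4 compounds, with filled points for an adjusted p under 0.05 over all genes. For dCBP and IHK-44 the points of SPRY1 (-3.38 and -3.79) are the lowest and those of DUSP5 and ETV4 lie near 0, and the points of JQAD lie between -0.14 and 0.16.

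Compounds could be set against each other at the same doses and times, over 6 pairs, and each pair shares the fit with all others. IHK-44 and dCBP were not distinguished for any of the 10 genes by edgeR (0.0% of all genes lower, 0 of 10 at an unadjusted p under 0.05, 0 by DESeq2 and 0 by limma). For SPRY1 the difference, dCBP minus IHK-44, was 0.41 with a 95% interval of -0.96 to 1.77, and for DUSP6 0.12 with an interval of -0.49 to 0.73, so differences of more than 1 log2 unit in SPRY1 are not excluded by the interval. At 1 uM SPRY2 was 6.76 and 10.5 CPM with IHK-44 and 27.8 and 12.2 CPM with dCBP, at 2 h and 6 h. At 100 nM it was 25.4 and 30.2 CPM with IHK-44 and 32.9 and 12.0 CPM with dCBP. IHK-44 thus gave the lower value except at 100 nM for 6 h, and each of these comparisons sets 1 library against 1 library. At 1 uM and 6 h the 95% Poisson intervals overlap, at 8.97 to 12.1 CPM with IHK-44 and 10.4 to 14.2 CPM with dCBP.

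Against JQAD, 8 of the 10 genes were lower with dCBP (16.4% of all genes) and the same 8 with IHK-44 (16.1%), counts that none of the 25 other settings moved by more than 1.5 times. A485 was lower than JQAD for DUSP4 and DUSP6 (1.7% of all), with log2 differences of -0.99 (SE 0.25, adjusted p = 0.0326) and -0.95 (SE 0.26, adjusted p = 0.0446) by edgeR. That count was 0 without any single JQAD library or without 1 uM A485 at either time, and 1 without either DMSO library or 100 nM IHK-44 at 6 h. A485 was higher than IHK-44 for SPRY1 (2.68, SE 0.62, adjusted p = 0.0488), SPRY2 (2.00, SE 0.42, adjusted p = 0.037) and DUSP6 (1.25, SE 0.28, adjusted p = 0.0426) by edgeR (0.377% of all genes higher). These adjusted p-values sit close to the threshold. The count was 0 without either DMSO library, either 100 nM A485 library, either 1 uM IHK-44 library or 100 nM IHK-44 at 2 h, and 1 without any single NT or JQAD library. It was 5 without 100 nM dCBP at 6 h, and 7 without 1 uM A485 at 2 h or with DESeq2. A485 against dCBP gave 0 of 10 by edgeR (0.249% of all genes higher), 6 by DESeq2 (514 of all genes) and 2 by limma (210 of all). At an unadjusted p under 0.05 in edgeR were 8 of the 10, beside 2841 of 13260 genes. SPRY2 came closest there, at 1.81 (SE 0.42, adjusted p = 0.0531), and the count was 5 without 1 uM A485 at 2 h or 100 nM dCBP at 2 h, and 1 without 1 uM IHK-44 at 2 h or 100 nM IHK-44 at 6 h.

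Dose was compared within each compound. With A485, 1 uM was lower than 100 nM for SPRY1, SPRY2 and DUSP4 by edgeR (0.853% of all genes), with log2 differences of -1.99 (SE 0.23, adjusted p = 0.00324), -1.15 (SE 0.15, adjusted p = 0.0044) and -0.96 (SE 0.16, adjusted p = 0.0204). In percent of DMSO, SPRY1 with A485 was 14.9% and 25.9% at 1 uM and 70.9% and 79.4% at 100 nM, at 2 h and 6 h. This count fell to 0 without either A485 library of 6 h and to 1 without either of 2 h, each of which leaves A485 with 3 libraries. With IHK-44, SPRY1 and SPRY2 were lower at 1 uM (0.107% of all genes, 14 genes), with log2 differences of -2.76 (SE 0.32, adjusted p = 0.00724) and -1.73 (SE 0.17, adjusted p = 0.00275) by edgeR, and only SPRY2 kept its call without IHK-44 at 6 h in either dose. DUSP4 and SPRY4 did not differ detectably between the doses of IHK-44, at 0.15 (95% interval -0.22 to 0.52) and 0.50 (-0.01 to 1.01).

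With dCBP 0 of the 10 genes were called for dose by edgeR (0.0% of all), with 0 at an unadjusted p under 0.05, 0 by DESeq2 and 0 by limma. SPRY2 with dCBP was 24.0% and 10.9% of DMSO at 1 uM and 28.4% and 10.8% at 100 nM. JQAD also gave 0 for dose (0.0% of all), with 0 unadjusted, 0 by DESeq2 and 0 by limma. Whether the dose effect itself differed between IHK-44 and dCBP was tested after the values were seen. The difference was -1.58 for SPRY2 (95% interval -2.10 to -1.07, adjusted p = 0.173) and -2.16 for SPRY1 (-3.11 to -1.21, adjusted p = 0.696) by edgeR. Of the 10, 0 passed over all genes (0.00761% of all lower), with 1 by DESeq2 and 0 by limma. At an unadjusted p under 0.05 in edgeR were 2 of the 10, beside 163 of 13137 genes. SPRY2 passed with DESeq2 (adjusted p = 3.07e-05) and without a filter on low counts (0.0141), and over the 21 alternative settings its adjusted p ran up to 0.971. SPRY1 passed without 1 uM IHK-44 at 2 h (adjusted p = 0.00587) and without 100 nM IHK-44 at 2 h (0.0059), with edgeR on the remaining libraries. The dose effect of A485 minus that of dCBP gave 0 of 10 by edgeR (0.0228% of all lower), 0 by DESeq2 and 0 by limma. Unadjusted, 5 of the 10 passed, beside 641 of 13137 genes. IHK-44 minus A485 gave 0 of 10 (0.0228% of all higher), 0 by DESeq2 and 0 by limma. Unadjusted, 3 passed there (DUSP4 and SPRY4 higher, SPRY2 lower), beside 361 of 13137 genes.

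**Figure D4:**
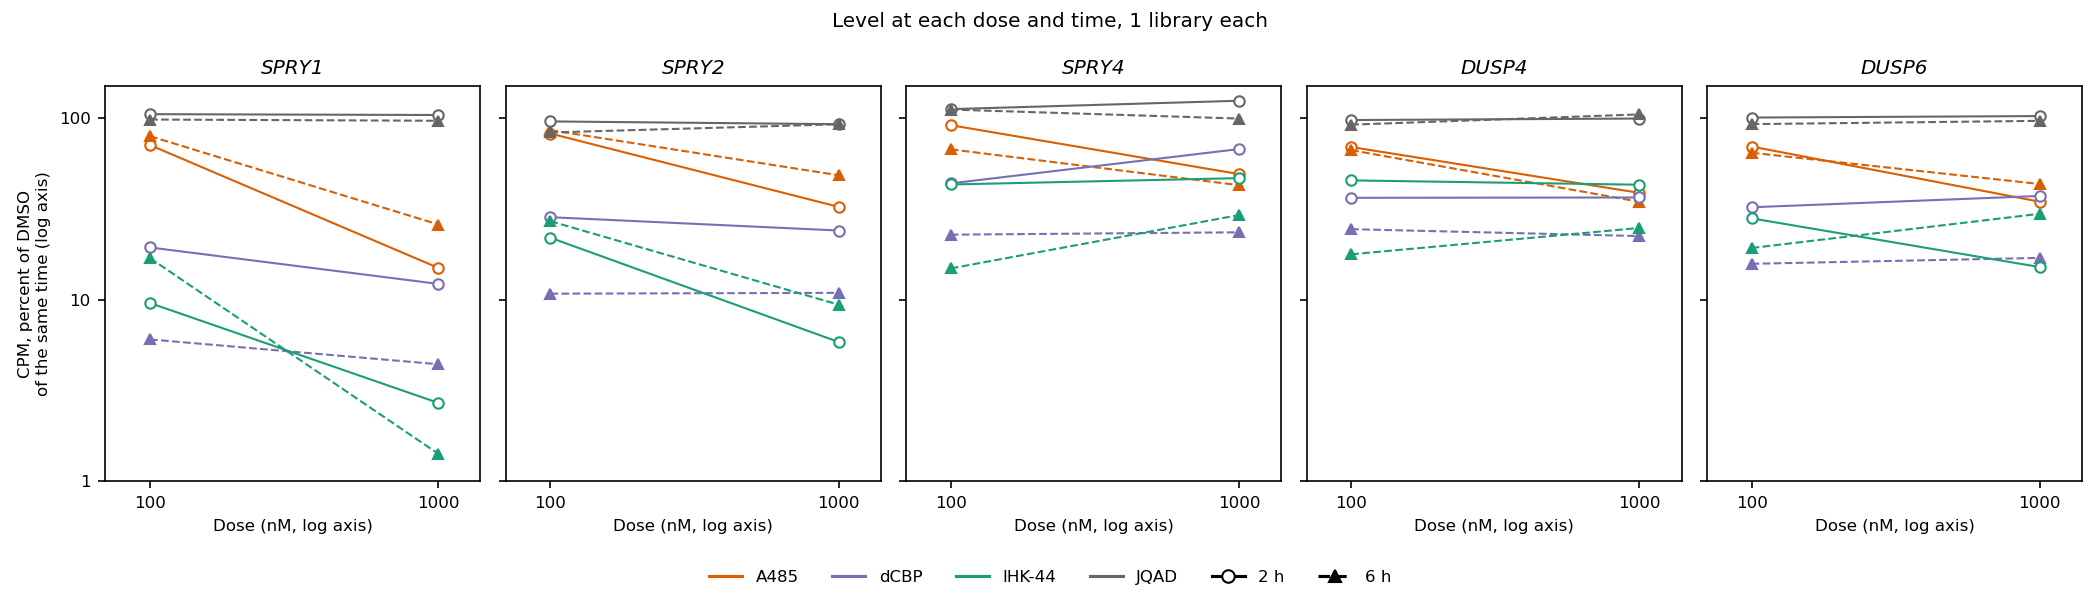
CPM in percent of DMSO of the same time (log axis) at 100 nM and 1000 nM (log axis) for SPRY1, SPRY2, SPRY4, DUSP4 and DUSP6, 1 library a point, with solid lines at 2 h and dashed lines at 6 h. The lines of A485 slope down in all 5 genes, those of IHK-44 slope down in SPRY1 and SPRY2 at both times, and those of dCBP are close to level in SPRY2 and DUSP4.

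Time was compared as the change from 2 h to 6 h beside that of the DMSO and NT libraries. With dCBP SPRY1, SPRY2, SPRY4, DUSP4 and DUSP6 were lower at 6 h than at 2 h in both doses: SPRY1 at 6 h was 0.406 and 0.35 times its 2 h level at 1 uM and 100 nM, SPRY2 0.438 and 0.366 times. With A485 SPRY1 at 6 h was 1.95 times its 2 h level at 1 uM and 1.26 times at 100 nM, beside 1.12 with DMSO and 1.25 with NT. With IHK-44 SPRY1 at 6 h was 0.589 times its 2 h level at 1 uM and 1.99 times at 100 nM, so the doses went opposite ways, and SPRY2 was 1.55 and 1.19 times. None of the 10 genes passed the edgeR test of this time dependence. In that fit the 2 doses of a compound stood in for replicates at each time, so the spread contains the dose. The SE of SPRY1 was 1.10 for dCBP and for IHK-44, and the test cannot show that time dependence is absent. With dCBP the count was 0 (6.4% of all genes lower), 2 by DESeq2 and 0 by limma. At an unadjusted p under 0.05 in edgeR were 3 of the 10, beside 3319 of 13260 genes. SPRY4 came closest at -1.38 (SE 0.43, adjusted p = 0.0529). With IHK-44 the count was 0 (7.76% of all lower), 2 by DESeq2 and 0 by limma. Unadjusted, 4 of the 10 passed, beside 3249 of 13260 genes. DUSP4 came closest at -1.16 (SE 0.39, adjusted p = 0.0683). A485 gave 0 (0.00754% of all lower) and JQAD 0 (0.0%), each with 0 unadjusted, 0 by DESeq2 and 0 by limma. Leaving out any A485 library, the 1 uM dCBP library of 6 h or either IHK-44 library of 6 h brought the count for dCBP to 1 or 2, and leaving out any A485 library or the 1 uM IHK-44 library of 6 h did so for IHK-44.

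The other genes of the pathway were taken from lists named for their roles, and the calls below are those of the same edgeR fit against DMSO. Over all 93 genes tested in these lists, A485 and JQAD gave 0 calls each, with 27 and 0 at an unadjusted p under 0.05. Over all 13260 genes tested, 2534 and 143 were under that unadjusted threshold. Of 8 tested further members of the 3 families, 5 were lower and 2 higher with dCBP (11.8% of all genes were called lower and 11.8% higher), and 5 lower and 1 higher with IHK-44 (9.21% and 7.74% of all). Those lower included DUSP1, a nuclear phosphatase of stress kinases, at -1.39 (SE 0.27, adjusted p = 0.00395) for dCBP and -1.77 for IHK-44, and DUSP10, at -2.63 (SE 0.40, adjusted p = 0.00114) and -2.69, by edgeR. DUSP10 went from 21.0 and 16.4 CPM with DMSO to 5.01 and 1.49 CPM with 100 nM dCBP. DUSP2 was called lower too but stood at 2.16 and 0.794 CPM with DMSO. DUSP7, a cytoplasmic relative of DUSP6, was called higher with both, at 0.44 and 0.45, and SPRED3 with dCBP alone. The direct test of dCBP against IHK-44 in this fit called 0 of all 13260 genes, so the call for SPRED3 does not set the compounds apart.

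Of 12 genes listed as other feedback genes, not all of them inhibitors, 5 were lower with dCBP (11.8% of all genes) and 5 with IHK-44 (9.21% of all), and 0 higher. FLRT3, an FGF receptor partner, was 40.3 and 32.4 CPM with DMSO and 3.27 and 3.61 CPM with 1 uM IHK-44, a fitted -3.37 (SE 0.41, adjusted p = 0.000205, edgeR). ERRFI1, an inhibitor of the EGF receptor, was 236 and 224 CPM with DMSO and 65.0 and 58.9 CPM with 1 uM IHK-44. IL17RD, an inhibitor of FGF signalling also called SEF, changed by -0.98 with dCBP and -0.85 with IHK-44.

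Among 21 tested genes known to respond to ERK, 9 were lower and 3 higher with dCBP (11.8% and 11.8% of all genes), and 11 lower and 1 higher with IHK-44 (9.21% and 7.74% of all). MYC, the growth-promoting transcription factor, was 75.6 and 67.6 CPM with DMSO, 6.95 and 1.47 CPM with 1 uM dCBP, 5.20 and 1.26 CPM with 1 uM IHK-44 and 5.76 and 5.54 CPM with 1 uM A485. PHLDA1 changed by -2.56 (SE 0.40, adjusted p = 0.0014) with dCBP and -2.45 with IHK-44 by edgeR, and LIF, a cytokine at 1.20 and 0.463 CPM with DMSO, was called lower as well. The genes called higher make up a share near that of all genes for both compounds. EGR1, an immediate early gene of ERK and SRF, went from 7.74 to 42.1 CPM with 1 uM dCBP at 2 h and from 5.03 to 24.6 CPM at 6 h, a fitted 2.19 (SE 0.46, adjusted p = 0.00615, edgeR). EGR1 was also 33.9 and 19.3 CPM with 1 uM IHK-44 and 29.6 and 22.4 CPM with 1 uM A485, beside 5.80 and 5.88 CPM with 1 uM JQAD. FOS, of the same class, was called higher with dCBP at 1.86 (SE 0.41, adjusted p = 0.00778, edgeR). Its level was low, at 1.38 and 0.529 CPM with DMSO and 5.10 and 3.17 CPM with 1 uM dCBP. EGR1 and FOS, with DUSP7 and SPRED3 above, were named for their direction after their values were seen.

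Of 25 core genes from adaptors to ERK and its nuclear targets, 2 were lower and 1 higher with dCBP (11.8% and 11.8% of all genes), and 2 lower and 0 higher with IHK-44 (9.21% and 7.74% of all), shares no larger than those of all genes. Those called with IHK-44 were the scaffold KSR1 and the adaptor SHC1, and neither was called with dCBP. At 6 h KSR1 was 33.3 and 35.5 CPM with dCBP (1 uM and 100 nM) and 30.0 and 24.1 CPM with IHK-44. SHC1 was 271 and 343 CPM with dCBP and 259 and 259 CPM with IHK-44. The direct test of dCBP against IHK-44 by edgeR called 0 of all 13260 genes, so these calls do not set the compounds apart. Of 15 tested receptors, 5 were lower and 1 higher with dCBP (11.8% and 11.8% of all), and 6 lower and 0 higher with IHK-44 (9.21% and 7.74% of all). FGFR2, a receptor for FGF ligands, was 57.6 and 51.3 CPM with DMSO, 35.4 and 9.44 CPM with 1 uM dCBP and 35.6 and 7.76 CPM with 1 uM IHK-44, so it lay lower at 6 h than at 2 h with both. KIT, the receptor for stem cell factor, changed by -1.34 and -1.27, and NTRK3, at 1.32 and 0.728 CPM with DMSO, was called lower with both. Of 12 tested ligands, 6 were lower and 0 higher with dCBP (11.8% and 11.8% of all), and 1 lower and 0 higher with IHK-44 (9.21% and 7.74% of all), the latter near the share of all genes. At an unadjusted p under 0.05 in edgeR were 8 of the 12 with dCBP and 10 with IHK-44. Of all 13260 genes tested, 5299 and 4640 were under that threshold. The median fitted log2 change of the ligands was -0.83 with dCBP and -0.75 with IHK-44, so the counts of 6 and 1 do not set the compounds apart. FGF9 was 11.7 and 9.26 CPM with DMSO and 3.10 and 4.20 CPM with 1 uM dCBP, with a log2 change of -1.59 (SE 0.25, adjusted p = 0.00146, edgeR).

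At 2 h, where the receptors had a median log2 ratio of -0.12 with dCBP and -0.10 with IHK-44, the median of the 10 genes was -0.48 and -0.72. Other family members were at -0.47 and -0.64, ERK-responsive genes at -0.47 and -0.53 and ligands at -0.395 and -0.35 at this time. The other feedback genes were at -0.11 and -0.09. At 6 h the receptors were at -0.55 and -0.85, the ligands at -1.10 and -0.94, and the 10 genes at -1.31 and -1.08. ERK-responsive genes were then at -0.72 and -0.89, other family members at -0.44 and -0.59 and the other feedback genes at -0.34 and -0.28. The core genes were at -0.02 and -0.01 at 2 h and 0.19 and 0.21 at 6 h, where all genes were at 0.19 and 0.20. These medians describe lists chosen with results known, and no difference between lists was tested.

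**Figure D5:**
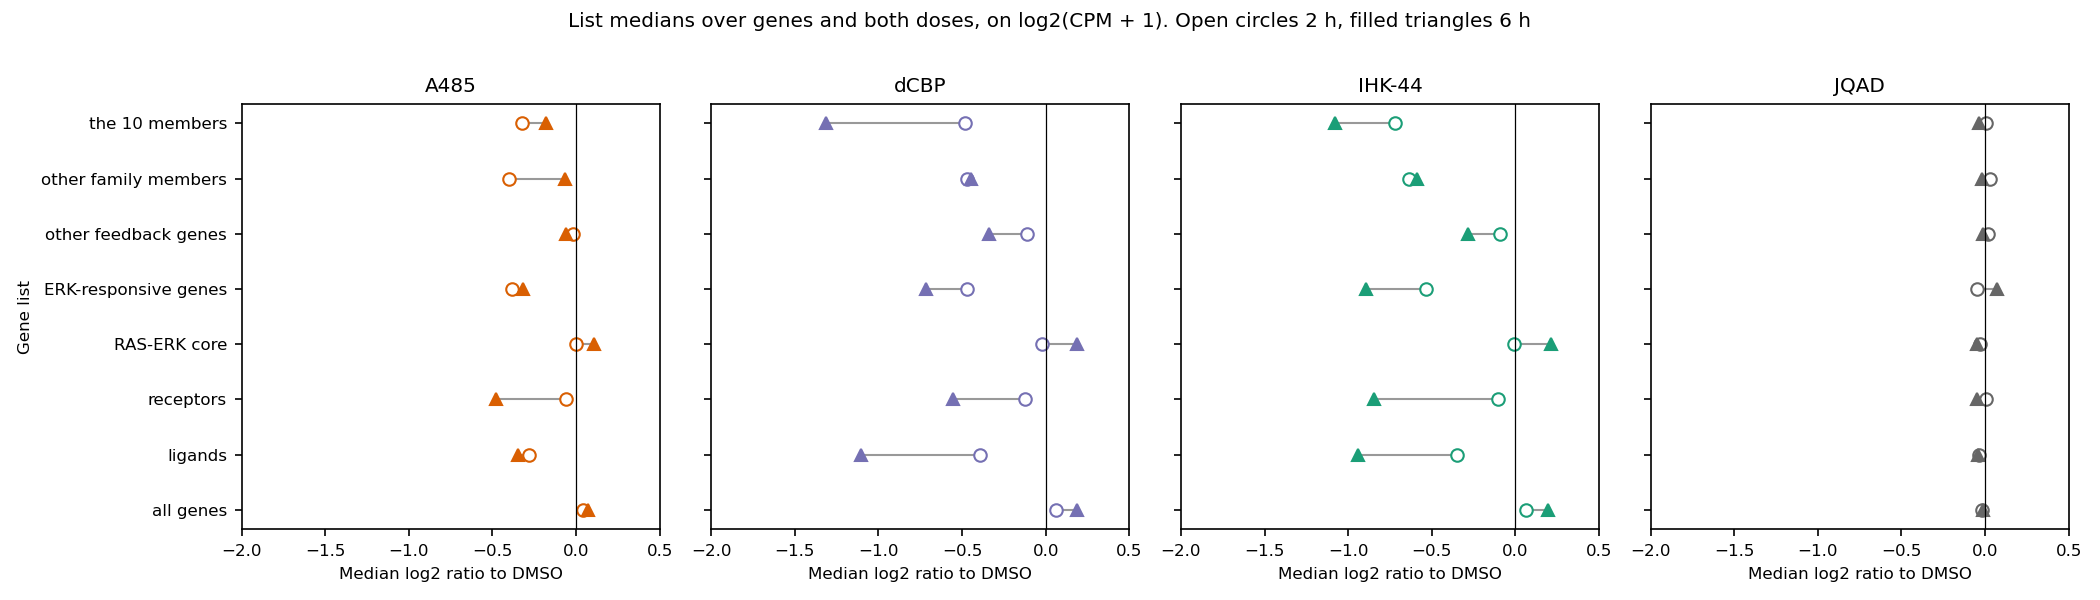
Median log2 ratio to DMSO, on log2(CPM + 1), over the genes of each list and both doses, for each compound, with open circles at 2 h and filled triangles at 6 h. With dCBP and IHK-44 the 10 genes and the ligands lie farthest to the left at 6 h, the core genes and all genes lie near or right of 0, and with JQAD all lists lie near 0.

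Per length, the order of the levels in the 4 DMSO and NT libraries was SPRY2, SPRY1, SPRED2, ETV5, SPRED1, DUSP6, DUSP4, SPRY4, ETV4 and DUSP5. The medians on the scale of TPM (transcript abundance per length) over the coding genes were 125 for SPRY2, 86.1 for SPRY1, 68.9 for SPRED2, 52.7 for ETV5, 31.9 for SPRED1 and 24.2 for DUSP6, and 14.8 for DUSP4, 12.0 for SPRY4, 8.02 for ETV4 and 5.18 for DUSP5. Neighbours whose ranges over the 4 libraries overlap are DUSP4 with SPRY4 (13.8 to 16.7 and 8.83 to 15.7) and SPRY4 with ETV4 (7.25 to 9.13). Over the 20 libraries the SD of log2(CPM + 1) was 1.86 for SPRY1, 1.33 for SPRY2, 0.96 for DUSP6, 0.81 for SPRY4 and 0.80 for DUSP4, and at most 0.28 for the other 5 genes.

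The members fell into those that shared a pattern over the libraries and those that did not. Pearson's r of log2(CPM + 1) over the 20 libraries was 0.983 between SPRY1 and SPRY2, 0.944 between SPRY4 and DUSP6 and 0.941 between SPRY4 and DUSP4, whereas DUSP5 had r of at most 0.224 and ETV4 likewise with any other member. Among 10544 other genes, the patterns most like that of SPRY1 were those of TSC22D2 (r = 0.978), JUN (0.977) and FOXA2 (0.969). For SPRY2 they were FOXC2 (0.972), TNFAIP3 (0.969) and TSC22D2 (0.967), and for DUSP6 PLK2 (0.963), SGK1 (0.958) and JUN (0.956). These values are descriptions over libraries that form groups by compound and share controls, time and scaling.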

How the data were processed

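RNA-seq of 20 RH4 libraries was used, and the 11 ChIP-seq libraries and 1 ChRO-seq library were not used here. The deposited files list, per the file headers, values for 18980 coding genes. The authors deposited expected counts (estimated reads per gene, not whole and not normalised, in RSEM-style columns per the file headers). The normalised count deposited by the authors is scaled to the same total in every library over the coding rows and is called CPM. In the TPM values deposited by the authors the coding rows hold 27.9% to 53.9% of the total, so levels per length were rescaled over those rows. The submitters' processing notes name STAR 2.5.3a, RSEM 1.3.3 and the build hg38; their roles, the annotation and whether strand was counted are not given in the sources used here, so reads of overlapping antisense genes cannot be told apart. The labels do not say whether libraries came from separate cultures, so p-values measure the spread between these libraries, which may be technical.

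Expected counts were rounded and fitted with edgeR 4.0.16 (R 4.3.3; TMM scaling, filterByExpr, glmQLFit, glmQLFTest), with Benjamini-Hochberg adjustment over all genes tested and a threshold of 0.05. The fit against DMSO and between compounds held 13260 genes and 13 residual degrees of freedom, with DMSO, NT and each compound as groups and a common term for time. The dose fit compared doses within each compound and time over the 16 treated libraries (13137 genes, 4 degrees of freedom), and the time fit took DMSO and NT together, with each compound by time as a group (13260 genes, 10 degrees of freedom). All compounds were compared with the same DMSO libraries. The alternatives were DESeq2 1.42.0, limma 3.58.1 on log2(CPM + 1), other scalings, filters and controls, and leaving out each library. The scripts were tested on simulated counts. Ratios of single libraries used a pseudocount of 1 CPM, and counts over all genes at 2-fold used the 12174 genes with a mean of at least 1 CPM. Poisson intervals cover counting error only.

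The members, lists and tests were chosen with earlier results of these data known, among them a dose and compound comparison in which SPRY2 stood out. Named besides the 10 genes are, per list, the 3 with the largest fitted change among those called with both dCBP and IHK-44, and for the 3 members of largest SD the 3 genes with the highest Pearson r (mean of at least 5 CPM). Outside this rule KSR1 and SHC1 were named as the core genes called with IHK-44, and EGR1, FOS, DUSP7 and SPRED3 for their direction. Promoters came from RefSeq (GRCh38.p14), with the outermost start where a gene has several, and DUSP4, DUSP5, ETV4 and ETV5 were not matched.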

Additional observations from a re-analysis of the deposited data

Results flagged for a closer look

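Differences between compounds passed edgeR's quasi-likelihood test over all genes for the following values, each a fitted log2 difference of compounds over the 4 libraries of each. A485 was higher than IHK-44 by 1.25 for DUSP6, 2.68 for SPRY1 and 2.00 for SPRY2. A485 minus JQAD was -0.99 for DUSP4 and -0.95 for DUSP6.

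For dCBP minus JQAD the Sprouty genes gave -3.40 (SPRY1), -2.42 (SPRY2) and -1.72 (SPRY4), the SPRED genes -0.48 (SPRED1) and -0.35 (SPRED2), the phosphatases -1.86 (DUSP4) and -2.08 (DUSP6), and ETV5 -0.34. For IHK-44 minus JQAD they gave -3.80 (SPRY1), -2.60 (SPRY2), -1.95 (SPRY4), -0.49 (SPRED1), -0.40 (SPRED2), -1.76 (DUSP4), -2.20 (DUSP6) and -0.40 (ETV5). These values share the libraries of JQAD, and each compound's libraries span both doses.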

How the results depend on the processing

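With 1 library per condition and 4 libraries standing in for replicates, the counts of called genes moved with single libraries, and values under about 3 CPM rest on few reads. The labels give no replicate numbers to pair, and libraries were matched by time in the fits against DMSO and by compound and time in the dose fit. The cause of the changes below was not tested, except that fewer libraries were fitted where one was left out. Calls over all genes moved with single libraries as well. For dCBP and IHK-44 against DMSO they fell without either DMSO library.

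Of the counts of called genes among the 10, those for JQAD against DMSO, for dCBP against IHK-44, for dCBP and IHK-44 against JQAD, for dose with dCBP and JQAD and for time with A485 and JQAD stayed within 1.5 times in all settings run. The count for A485 against DMSO was 0 and became 1 with DESeq2, 2 with DMSO and NT pooled, and 0 to 1 with a library left out (1 without 100 nM A485 at 6 h). For dCBP against DMSO it was 8, and 2 to 8 with a library left out. For IHK-44 against DMSO it was 8, and 4 to 8 with a library left out. For A485 against dCBP it was 0, then 1 with library totals in place of TMM, 2 with no filter, 6 with DESeq2, 2 with limma, and 0 to 5 with a library left out. For A485 against IHK-44 it was 3, then 7 with DESeq2 and 0 to 7 with a library left out. For A485 against JQAD it was 2, and 0 to 3 with a library left out; DESeq2 gave 3. For dose with A485 it was 3, and 0 to 4 with a library left out, and for dose with IHK-44 it was 2, and 1 to 2. For time it was 0 with dCBP and with IHK-44, and each became 2 with no filter, 2 with DESeq2 and 0 to 2 with a library left out. The 9 values with A485 at least 2-fold below DMSO became 4 on the deposited TPM scale.

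Changes of sign touched DUSP5 and ETV4 against DMSO and the smaller dose and time values. ETV4 with dCBP became 0.029 with NT in place of DMSO, and ran from -0.29 to 0.092 with a library left out. DUSP5 with IHK-44 became -0.019 with DESeq2 size factors, -0.02 with DESeq2, -0.06 with DMSO and NT pooled and -0.12 with NT, and ran from -0.24 to 0.22 with a library left out. ETV4 with IHK-44 became 0.10 without TMM, 0.10 with limma, 0.059 with DMSO and NT pooled and 0.13 with NT, and ran from -0.19 to 0.19 with a library left out. DUSP5 with A485 ran from -0.031 to 0.39 with a library left out. In the time dependence of IHK-44, SPRY1 became -0.034 with limma and ran from -2.38 to 1.60 with a library left out. DUSP6 there became 0.012 without TMM, 0.004 with limma and 0.053 with DMSO alone, and ran from -0.49 to 0.43, and SPRY2 ran from -0.80 to 1.49. In the dose effect of IHK-44, DUSP4 ran from -0.11 to 0.44 and DUSP6 from -0.92 to 0.58 with a library left out. Of the 1192 log2 changes fitted with a library left out, 1070 kept their direction and their side of the threshold, and of the 380 under other settings 339 did.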
